A study of Mus musculus with 6 samples.

Results

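The RNA levels of 35 genes for growth factors and receptor tyrosine kinases were compared in E1A;HrasG12V mouse embryonic fibroblasts, transformed cells that carry the adenoviral oncogene E1A and an activated Ras. The 35 genes (20 ligands and 15 receptors) were chosen by name, as the rows of the deposited count table that bear their symbols, and all 35 were among its 23420 genes. Each of 3 cell lines of mixed 129/Sv-C57BL/6 strain gave 1 library from cells that received a p53-directed guide (sgp53) and 1 from cells that received a non-targeting guide (sgNTC). The sgp53 cells are p53 null in lines 1 and 3 and functionally inactive for p53 in line 2, and the sgNTC cells are p53 wild-type, as labelled. The cells of both groups carry the 2 oncogenes and grew in 5% oxygen, with a recovery of 24 h listed for both groups. There is thus no untransformed control, and the labels do not say whether the cells of a library were a clone or a pool. All 3 sgp53 libraries are titled sgp53(1) and no second p53-directed guide is labelled. Effects particular to that guide therefore cannot be told apart from those of p53 status. The comparison asked which of these genes differ with p53 status at this oxygen level.

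Receptor tyrosine kinases are membrane proteins that pair up when a secreted or membrane-bound ligand binds them, phosphorylate each other and pass the signal to Ras, PI3 kinase and phospholipase C. In fibroblasts, PDGFs and FGFs are classical mitogens, and the ligands of the EGF family are made as membrane precursors that proteases release. These cells already carry an activated Ras, which acts downstream of the receptors.

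Library totals were 29703837, 35860866 and 29564516 counts for sgp53 lines 1, 2 and 3 and 32536641, 27503577 and 28956001 counts for sgNTC lines 1, 2 and 3. The targeted gene, Trp53, was at 71.1, 72.0 and 113 CPM (counts scaled to library size) in the sgp53 libraries, against 206, 277 and 253 CPM in the sgNTC libraries of lines 1, 2 and 3. Of the fibroblast markers, Vim was at 2502 to 3001 CPM in sgp53 and 2754 to 3354 CPM in sgNTC, while Lum had 1 count in all 6 libraries. The list summed to 3750 to 4915 CPM in sgp53 and 3964 to 4313 CPM in sgNTC, sums made up mostly of Vim. Of its 10 tested genes 8 had positive log2 fold changes, with a median of 1.64, and Vim (-0.22) and Twist1 (-0.12) had negative ones. S100a4 averaged 41.3 ± 50.5 CPM in sgp53 and 2.50 ± 0.661 CPM in sgNTC (edgeR adjusted p = 0.0626), with 99.4 CPM in sgp53 line 3. Summed epithelial markers were at 89.4 to 136 CPM in sgp53 and 262 to 648 CPM in sgNTC. Most of that sum was Krt18, at 66.7 ± 23.8 CPM in sgp53 and 415 ± 200 CPM in sgNTC (SD, n = 3 each; edgeR adjusted p = 0.0295; 0.0534 with the block), and Krt5 had 0 counts. Of the 6 tested epithelial markers 5 had negative log2 fold changes, with a median of -1.22 over the 6, and Cdh1 had a positive one (0.097). Endothelial markers summed to 9.48 to 19.1 CPM in sgp53 and 15.3 to 36.0 CPM in sgNTC, and blood cell markers to 8.09 to 8.67 CPM in sgp53 and 13.3 to 16.1 CPM in sgNTC, with Emr1, Cd3e and Tyrobp at 0 counts. Melanocyte and mast cell markers summed to 5.43 to 7.48 CPM in sgp53 and 9.31 to 10.1 CPM in sgNTC. Neural markers, of which Nes made up nearly all, summed to 262 to 404 CPM in sgp53 and 330 to 397 CPM in sgNTC. Against 2.76% higher and 3.69% lower of all tested genes, 1 of 10 tested fibroblast markers was called higher, Fap (edgeR adjusted p = 0.0380; 0.0825 with the block). Of the others, 1 of 6 tested epithelial markers (Krt18) and 1 of 2 blood cell markers (Cd68, edgeR adjusted p = 0.0152; 0.0478 with the block) were called lower, and 0 of the endothelial, neural and melanocyte and mast cell genes. The part of these markers in the results was not tested. The sgp53 library of line 3 stood apart from the other 5, with 3338 CPM of the ribosomal RNA precursor Rn45s, against 636 to 864 CPM.

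Across the family, 3 genes rose and 2 fell in sgp53 cells. The FGF receptor Fgfr2, its ligand Fgf7 and the PDGF receptor ligand Pdgfc rose, and the EGF receptor ligands Areg and Tgfa fell. The test was the quasi-likelihood F-test of edgeR over all 13044 genes with enough counts, and the threshold for a call was 0.05 after Benjamini-Hochberg adjustment. Of the 29 members that passed the count filter, 5 were called, against 6.45% of all tested genes (2.76% higher and 3.69% lower). The median log2 fold change of the 29 was 0.27, against -0.01 over all tested genes, and the median of its size was 0.56, against 0.19. Among the tested ligands, 4 of 16 were called and the median size was 1.53. Among the tested receptors, 1 of 13 was called and the median size was 0.29. Of the 29, Pdgfb, Pdgfd, Fgf10, Fgfr4 and Nrg1 did not reach the filter in every sgNTC library and passed through the sgp53 libraries, where they were higher. None of these 5 was called by edgeR with all libraries. Without them, the median size of the fold change was 0.30 over 24 members, 0.48 over 12 ligands and 0.29 over 12 receptors. With the line as a block, 1 member was higher and 2 were lower, against 0.966% and 1.42% of all tested genes. DESeq2 called 7 members higher and 3 lower, against 9.16% and 8.98% of all tested genes. The 7 include Fgf10 and Nrg1, which had passed the count filter through the sgp53 libraries. limma-voom called 1 higher and 2 lower, against 2.18% and 3.17%. These are bulk libraries, in which fewer cells that use a gene and less RNA per cell cannot be told apart.

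**Figure D1:**
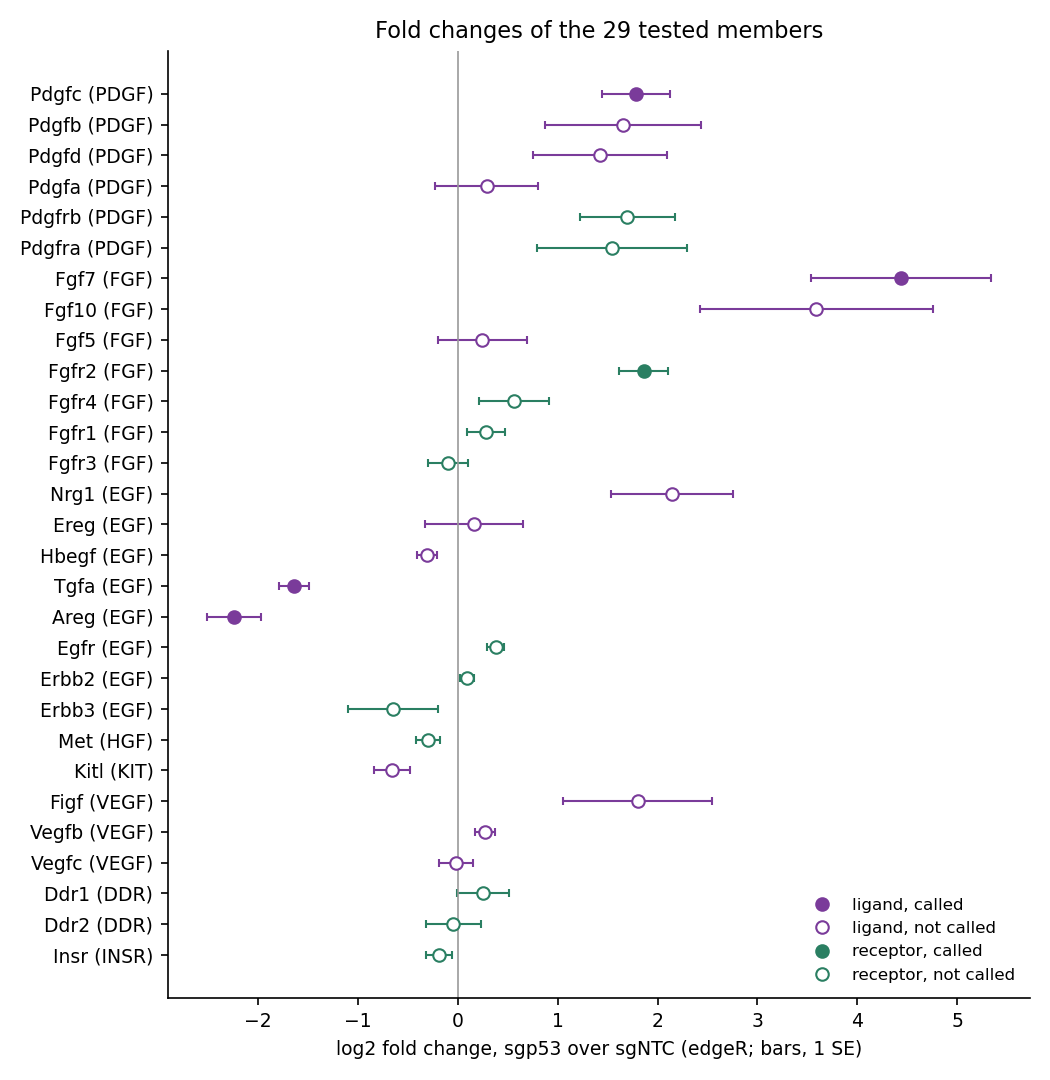
Log2 fold changes of sgp53 over sgNTC for the 29 tested members, grouped by family; bars are 1 SE and filled points passed the edgeR test at an adjusted p under 0.05. The filled points are Pdgfc, Fgf7 and Fgfr2 on the right and Tgfa and Areg on the left.

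The library groups did not overlap for 14 of the 29 tested members, against 36.8% of all tested genes. The sgp53 libraries were all above the sgNTC libraries for 9 (17.8% of all tested genes) and all below for 5 (19.0%). Among the 24 members that reached the filter in every library, 6 were all above and 5 all below. The 9 were Pdgfb, Pdgfc, Pdgfrb, Fgf7, Fgf10, Fgfr2, Nrg1, Egfr and Vegfb, and the 5 were Hbegf, Areg, Tgfa, Met and Kitl.

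In the EGF family, amphiregulin and TGF-alpha RNA were several-fold lower in sgp53 cells of every line, while their receptor was not lower. Areg (chromosome 5, 91139599 to 91148432) encodes amphiregulin, a ligand of the EGF receptor that is released from the membrane by ADAM17. It was at 7.75, 4.72 and 9.69 CPM in sgp53 lines 1, 2 and 3, against 29.6, 38.3 and 36.4 CPM in the sgNTC libraries of the same lines. The highest sgp53 library was thus below the lowest sgNTC library. The sgp53 libraries averaged 7.39 ± 2.50 CPM and the sgNTC libraries 34.8 ± 4.56 CPM (mean ± SD of 3). The log2 ratio was -2.24 (SE 0.27; edgeR adjusted p = 0.0111; 0.0386 with the line as a block). The Areg call was lost without sgp53 line 1 (edgeR adjusted p = 0.0563) and without sgNTC line 3 (0.0557).

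The 250 bases before the RefSeq start of Areg (GRCm38.p6, the assembly that mm10 denotes, plus strand, chr5:91139349-91139598) are shown because Areg had the largest fall of the members. Capitals mark the cyclic AMP response element TGACGTCA, at bases -61 to -54 from the start, and the TATA box TATAAA, at -31 to -26.
Areg: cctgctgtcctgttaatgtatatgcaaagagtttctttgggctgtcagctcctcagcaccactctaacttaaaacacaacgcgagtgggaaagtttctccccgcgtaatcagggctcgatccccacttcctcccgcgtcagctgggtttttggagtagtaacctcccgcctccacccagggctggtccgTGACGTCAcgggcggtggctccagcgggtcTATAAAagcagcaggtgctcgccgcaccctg
A GC box (GGGCGG), left in lower case, lies at -52 to -47 and overlaps neither. On either strand, TGACGTCA was found in 1.55% of 32851 RefSeq windows of this length and TATAAA in 12.4%. RefSeq windows were matched for 26 members, with 33 windows in all. Areg's was the 1 window of the 33 with TGACGTCA, and TATAAA was in 5 of them. GGGCGG was in 21 of the 33, against 32.7% of all windows. Ddr1, Fgfr3, Kit and Pdgfa each gave more than 1 of these 21, so the windows are not independent. The AP-1 motif TGANTCA was in 2 of the 33, against 6.75%, and the p53 half-site in 0, against 7.13%.

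Tgfa (chromosome 6, 86195038 to 86275744) encodes TGF-alpha, another ligand of the EGF receptor. It was at 10.9, 15.3 and 12.2 CPM in sgp53 lines 1, 2 and 3, against 38.7, 44.1 and 36.7 CPM in sgNTC. The groups did not overlap, and the difference was similar within each line (-1.83, -1.52 and -1.59 in log2 CPM). The sgp53 libraries averaged 12.8 ± 2.30 CPM and the sgNTC libraries 39.8 ± 3.82 CPM (mean ± SD of 3). The log2 ratio was -1.64 (SE 0.15; edgeR adjusted p = 0.00501). The Tgfa call was kept without any 1 of the 6 libraries (edgeR adjusted p between 0.0152 and 0.0290) and in the blocked fit (0.0143). It was lost when both libraries of line 1 (0.0657) or of line 3 (0.0912) were left out.

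Their receptor Egfr (chromosome 11, 16752203 to 16913907) was at 39.5, 35.4 and 39.9 CPM in sgp53 and 29.1, 31.7 and 27.4 CPM in sgNTC. The sgp53 libraries were all above the sgNTC libraries, with a log2 fold change of 0.38 (SE 0.087) that did not pass edgeR's test (adjusted p = 0.0550). DESeq2 called it (adjusted p = 0.00565), as did edgeR with upper-quartile scaling (0.0437). In each of the 3 lines Areg and Tgfa were lower in the sgp53 library while Egfr was higher in it.

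Of the other ligands of this receptor among the members, neither Hbegf nor Ereg was called. Outside the members, the ligand Btc was called lower and is described below. Egf was not called (edgeR adjusted p = 0.437) and Epgn had too few counts to be tested. Both are named after their values were seen. Hbegf, heparin-binding EGF-like growth factor, was at 256, 196 and 239 CPM in sgp53 and 292, 286 and 275 CPM in sgNTC, a log2 fold change of -0.30 (SE 0.10) that was not called (edgeR adjusted p = 0.114). Ereg, epiregulin, lies next to Areg on chromosome 5, with 45.9 kb between them. Ereg was at 27.5, 17.1 and 69.5 CPM in sgp53 and 29.9, 40.5 and 31.4 CPM in sgNTC. Its differences within lines 1, 2 and 3 were -0.12, -1.24 and 1.14 in log2 CPM, so the lines did not share a direction. The log2 fold change of Ereg was 0.16 (SE 0.49) with all libraries and -0.60 without sgp53 line 3, with no call in either.

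CPM per kb of exon divides by the joined length of all annotated exons of a gene, so it compares levels of different genes only roughly. On this scale Hbegf was the most abundant of the 4 EGF receptor ligands among the members in every library. The 4 together summed to 67.8, 51.0 and 76.0 CPM per kb in sgp53 and 97.9, 107 and 100.1 CPM per kb in sgNTC, with no overlap. Hbegf made up 74.3 ± 8.13% of that sum in sgp53 and 57.9 ± 3.36% in sgNTC, and Areg 9.17 ± 1.45% in sgp53 and 28.1 ± 2.78% in sgNTC (SD, n = 3 each). Ereg made up 22.1% in sgp53 line 3 and between 7.40% and 9.84% in the other 5 libraries.

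**Figure D2:**
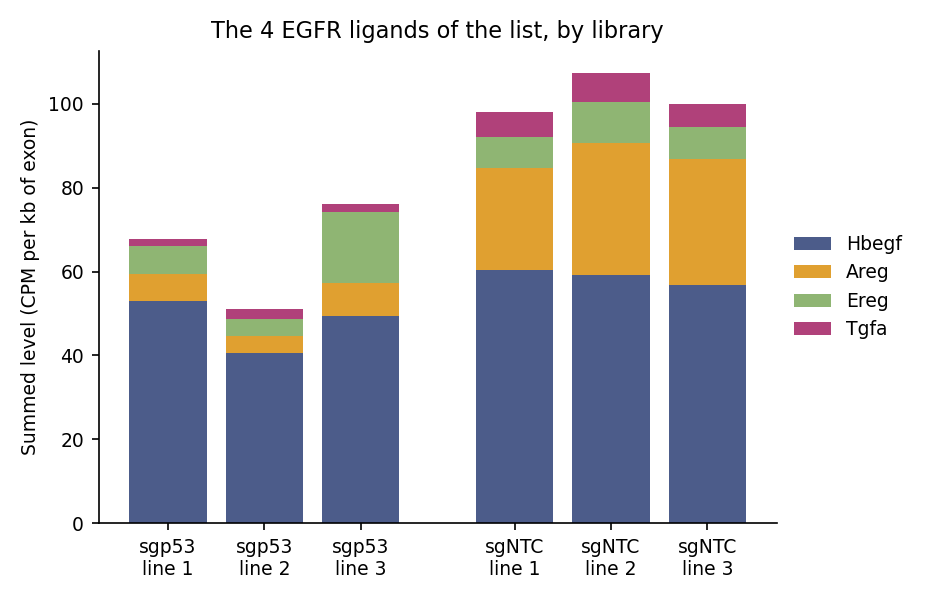
Stacked levels (CPM per kb of exon) of Hbegf, Areg, Ereg and Tgfa in each library. The sums lie between 51.0 and 76.0 in the 3 sgp53 libraries and between 97.9 and 107 in the 3 sgNTC libraries, and the Areg part is smaller in each sgp53 library.

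No call was made for neuregulin or its receptors. Nrg1, the ligand of ERBB3 and ERBB4, was at 2.32, 2.06 and 2.28 CPM in sgp53 and 0.992, 0.145 and 0.339 CPM in sgNTC. The groups did not overlap, but the log2 fold change of 2.14 (SE 0.61) was not called by edgeR (adjusted p = 0.0831). DESeq2 called it (0.0173), and so did edgeR without sgNTC line 1 (0.0264), the sgNTC library in which Nrg1 was highest. Erbb3, a receptor with little kinase activity of its own, was at 3.67 ± 1.06 CPM in sgp53 and 5.77 ± 3.32 CPM in sgNTC, with a log2 fold change of -0.65 (edgeR adjusted p = 0.382). Erbb2, the co-receptor that binds no ligand itself, was at 70.9 ± 1.76 CPM in sgp53 and 66.5 ± 5.13 CPM in sgNTC (log2 fold change 0.093, edgeR adjusted p = 0.419).

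In the FGF family, the receptor Fgfr2 and its ligand Fgf7 both rose, which made them the 1 pair of the 17 ligand and receptor pairs examined with both genes called. In 3 pairs only the ligand was called, in 1 only the receptor (Fgf10 with Fgfr2), and in 12 neither. The 12 include the pairs of Fgf1, Fgf2, Fgf18, Hgf and Kit, which had too few counts to be tested. The pairs were not independent, since receptors such as Egfr, Fgfr1 and Fgfr2 stand in more than 1. Fgfr2 (chromosome 7, 130162451 to 130266808) was at 11.9, 12.2 and 20.1 CPM in sgp53 lines 1, 2 and 3 and 4.51, 3.62 and 4.03 CPM in sgNTC. Each sgp53 library was above every sgNTC library. The sgp53 libraries averaged 14.8 ± 4.66 CPM and the sgNTC libraries 4.05 ± 0.443 CPM (mean ± SD of 3). The log2 ratio was 1.86 (SE 0.24; edgeR adjusted p = 0.0148; 0.0429 with the line as a block). The Fgfr2 call was lost without sgNTC line 3 (0.0737), and the fold change was 1.57 without sgp53 line 3.

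Fgf7 (chromosome 2, 126034658 to 126091185), keratinocyte growth factor, is made by mesenchymal cells and binds the IIIb splice form of FGFR2, which is typical of epithelia. The counts are per gene and do not separate the splice forms. Fgf7 was at 7.03, 6.50 and 41.8 CPM in sgp53 and 1.11, 0.507 and 0.914 CPM in sgNTC. It was higher in sgp53 in all 3 lines, and sgp53 line 3 was 5.95-fold above the next library. The sgp53 libraries averaged 18.5 ± 20.2 CPM and the sgNTC libraries 0.845 ± 0.308 CPM (mean ± SD of 3). The log2 ratio was 4.43 (SE 0.90; edgeR adjusted p = 0.0426). Without sgp53 line 3 the fold change was 2.99 on the log2 scale and the call was kept (edgeR adjusted p = 0.0247). The Fgf7 call was lost without sgp53 line 1 (0.0751) or line 2 (0.0519), without sgNTC line 1 (0.0757), line 2 (0.119) or line 3 (0.142), in the blocked fit (0.0629) and with limma-voom (0.149).

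The windows before the starts of Fgf7 (plus strand, chr2:126034408-126034657) and Fgfr2 (minus strand, chr7:130266809-130267058) are shown since this pair moved together. Capitals mark the CCAAT box CCAAT in Fgf7, at -53 to -49, which 33.8% of all windows and 3 of the 33 member windows hold. The window of Fgfr2 held no match to the 7 motifs searched.
Fgf7: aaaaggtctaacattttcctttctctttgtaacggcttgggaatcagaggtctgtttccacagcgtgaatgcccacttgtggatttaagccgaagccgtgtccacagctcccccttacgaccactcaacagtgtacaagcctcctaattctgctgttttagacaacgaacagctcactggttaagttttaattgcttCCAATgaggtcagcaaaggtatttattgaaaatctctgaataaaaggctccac
Fgfr2: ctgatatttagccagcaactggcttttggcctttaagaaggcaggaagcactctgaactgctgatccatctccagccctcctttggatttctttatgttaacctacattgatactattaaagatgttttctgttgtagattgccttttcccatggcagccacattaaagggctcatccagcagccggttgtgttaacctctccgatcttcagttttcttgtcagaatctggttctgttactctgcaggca

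Fgf10, the other main ligand of FGFR2 IIIb, was at 1.81, 2.64 and 23.3 CPM in sgp53 and 0.240, 1.23 and 0.847 CPM in sgNTC. The groups did not overlap, yet sgp53 line 3 was 8.83-fold above the next library. Its log2 fold change of 3.59 (SE 1.17) was not called by edgeR (adjusted p = 0.107) and was called by DESeq2 (0.00240). Without sgp53 line 3 it was 1.54 and also not called.

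None of the other 3 FGF receptors, Fgfr1, Fgfr3 and Fgfr4, was called. Fgfr1, the main FGF receptor of mesenchymal cells, was at 285 ± 73.8 CPM in sgp53 and 234 ± 31.0 CPM in sgNTC (0.28 on the log2 scale, SE 0.19; edgeR adjusted p = 0.362). Fgfr3 was at 3.85 ± 0.247 CPM in sgp53 and 4.10 ± 0.823 CPM in sgNTC, and Fgfr4 at 0.537 ± 0.131 CPM in sgp53 and 0.362 ± 0.0632 CPM in sgNTC. Per kb of exon, Fgfr1 made up 93.1 ± 0.461% of the 4 FGF receptors in sgp53 and 95.6 ± 1.14% in sgNTC, and Fgfr2 4.57 ± 0.342% in sgp53 and 1.61 ± 0.354% in sgNTC (SD, n = 3 each). Of the other FGF ligands, Fgf5 was at 1.17 ± 0.486 CPM in sgp53 and 0.983 ± 0.387 CPM in sgNTC and was not called (edgeR adjusted p = 0.741).

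**Figure D3:**
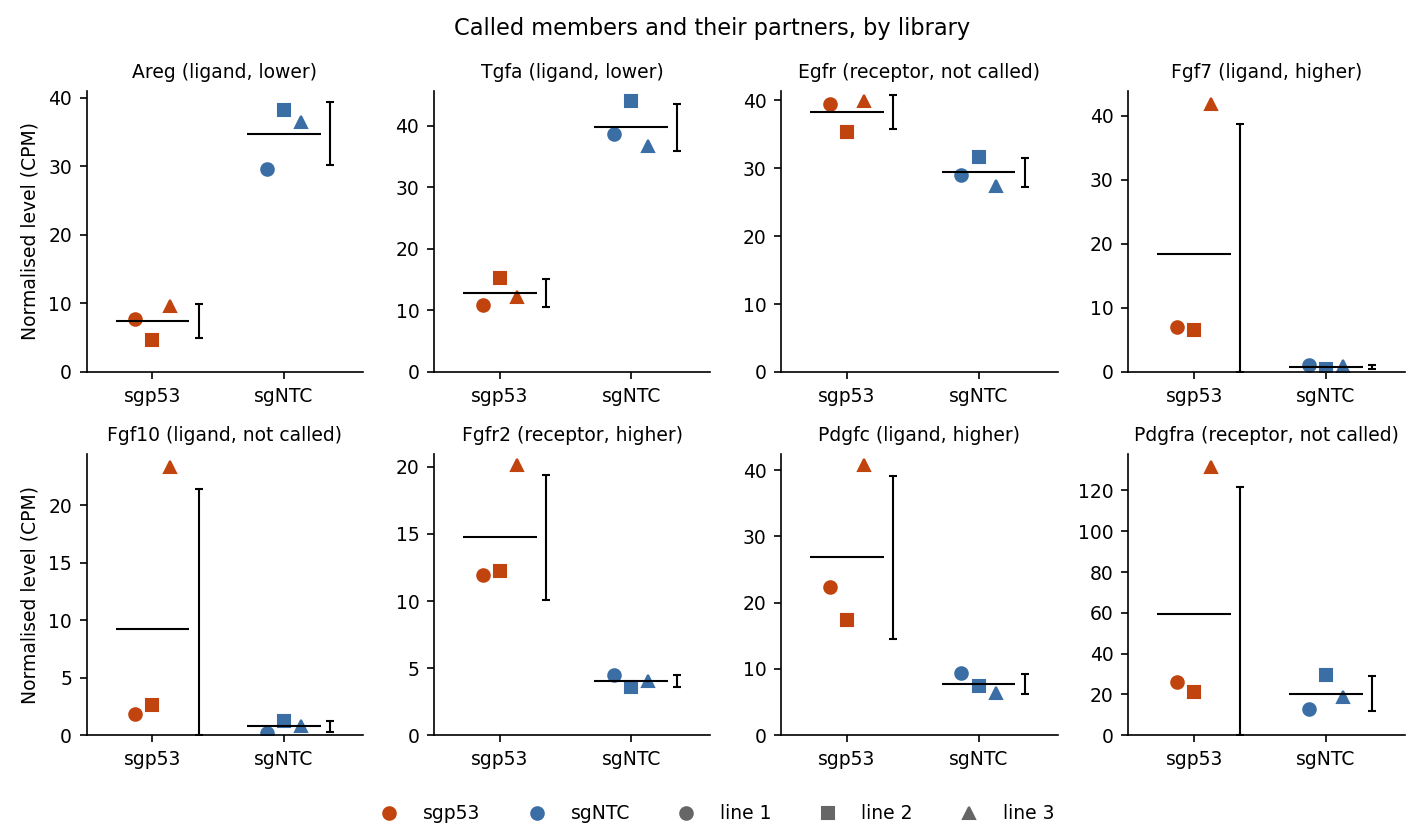
Levels (CPM) of the 5 called members and their partners Egfr, Fgf10 and Pdgfra in each library; black lines are group means and black bars the SD (n = 3), with lower ends stopped at 0. Areg and Tgfa lie at 15.3 CPM or less in each sgp53 library, and sgp53 line 3 is far above the other libraries for Fgf7, Fgf10 and Pdgfra.

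In the PDGF family, Pdgfc was the 1 gene of 6 that passed the test. All 6 fold changes were positive with all libraries, and that of Pdgfa was negative without sgp53 line 3. Pdgfb and Pdgfd passed the count filter through the sgp53 libraries, where they were higher, so the filter favoured a positive sign for them. Pdgfc (chromosome 3, 81036416 to 81214040) encodes a latent PDGF that proteases activate and that binds PDGF receptor alpha. It was at 22.3, 17.4 and 40.7 CPM in sgp53 and 9.41, 7.50 and 6.43 CPM in sgNTC. Every sgp53 library was above every sgNTC library, and sgp53 line 3 was the highest. The sgp53 libraries averaged 26.8 ± 12.3 CPM and the sgNTC libraries 7.78 ± 1.51 CPM (mean ± SD of 3). The log2 ratio was 1.78 (SE 0.34; edgeR adjusted p = 0.0358). The call was lost in the blocked fit (0.0818) and with limma-voom (0.0647). It was also lost without sgp53 line 1 (0.0891), sgNTC line 1 (0.0542), sgNTC line 2 (0.101) or sgNTC line 3 (0.128). Without sgp53 line 3 the Pdgfc fold change was 1.35 and the call was kept (0.0419).

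The window before the Pdgfc start (plus strand, chr3:81036166-81036415) is shown because it was the 1 member window with a CArG box, the element bound by serum response factor, in capitals at -17 to -8. A CArG box was found in 1.47% of all windows.
Pdgfc: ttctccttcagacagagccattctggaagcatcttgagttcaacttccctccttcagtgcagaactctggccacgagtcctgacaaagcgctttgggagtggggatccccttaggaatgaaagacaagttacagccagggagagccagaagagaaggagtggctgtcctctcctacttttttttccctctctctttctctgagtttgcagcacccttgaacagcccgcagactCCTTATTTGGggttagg

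In the fit without the block, the SEs of the receptors of the family were larger than that of Pdgfc. With the line as a block, the SE was 0.26 for Pdgfrb, 0.68 for Pdgfra and 0.34 for Pdgfc. Pdgfra (chromosome 5, 75151322 to 75198206) was at 26.2, 21.1 and 131 CPM in sgp53 and 12.9, 29.7 and 18.7 CPM in sgNTC, so the groups overlapped. In line 2 the sgp53 library was below the sgNTC library (-0.49 in log2 CPM), while in lines 1 and 3 it was above (1.02 and 2.81). The log2 fold change was 1.54 (SE 0.75, edgeR adjusted p = 0.229) and 0.21 without sgp53 line 3. Pdgfrb, which binds the B and D chains, was at 53.5, 57.4 and 124 CPM in sgp53 and 26.6, 12.0 and 33.8 CPM in sgNTC. Its groups did not overlap. The log2 fold change of 1.70 (SE 0.47) was not called by edgeR (adjusted p = 0.0794; 0.0581 with the block) but was by DESeq2 (0.0208). Without sgp53 line 3 the Pdgfrb fold change was 1.20.

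Of the other PDGF chains, Pdgfb was at 10.9, 9.62 and 7.93 CPM in sgp53 and 5.41, 0.326 and 3.22 CPM in sgNTC, with a difference of 1.66 on the log2 scale (SE 0.78; edgeR adjusted p = 0.216). sgNTC line 2 had 9 counts of Pdgfb, so most of the spread lay in the sgNTC group. Pdgfd was at 1.71 ± 0.491 CPM in sgp53 and 0.626 ± 0.606 CPM in sgNTC (log2 fold change 1.42, edgeR adjusted p = 0.214), and was called without sgNTC line 1 (0.0400). Pdgfa was at 18.6 ± 9.73 CPM in sgp53 and 15.2 ± 8.32 CPM in sgNTC, and was lower in the sgp53 library of line 1 and higher in those of lines 2 and 3 (-0.75, 0.83 and 0.96 in log2 CPM). Its log2 fold change was 0.29 (SE 0.52) with all libraries and -0.22 without sgp53 line 3, with no call in either. The pairs Pdgfb with Pdgfrb and Pdgfd with Pdgfrb had positive differences for both genes in all 3 lines. Both of these ligands had passed the count filter through the sgp53 libraries. Pdgfa and Pdgfra went the same way only in line 3.

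**Figure D4:**
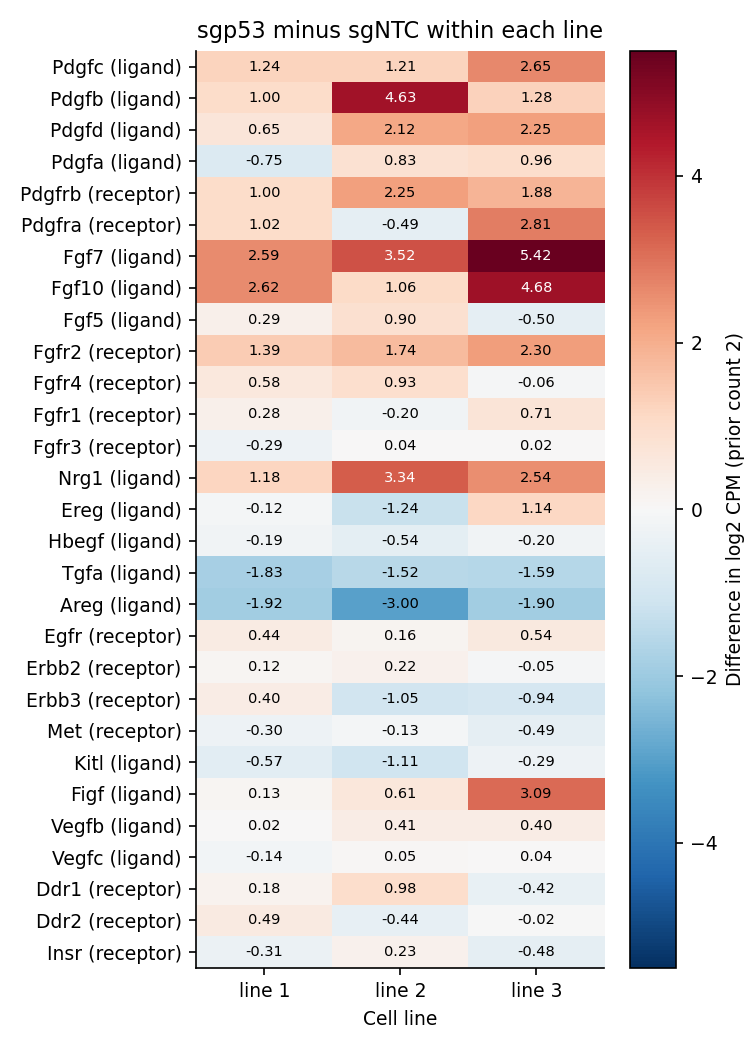
Difference in log2 CPM (prior count 2), sgp53 minus sgNTC, within each line for the 29 tested members. Areg and Tgfa are negative and Fgf7, Fgf10, Fgfr2 and Pdgfc positive in all 3 lines, while Ereg, Pdgfa and Pdgfra change sign between lines.

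Among the receptors with a single main ligand, neither pair had a call. Met, the HGF receptor, was at 77.0, 83.5 and 60.8 CPM in sgp53 and 94.7, 91.1 and 85.6 CPM in sgNTC, with no overlap and a difference of -0.29 on the log2 scale (SE 0.12; edgeR adjusted p = 0.168). Its ligand Hgf had too few counts to be tested, 6, 14 and 51 in sgp53 and 4, 9 and 2 in sgNTC. Kitl, stem cell factor, was at 32.9, 32.8 and 45.3 CPM in sgp53 and 48.8, 70.7 and 55.5 CPM in sgNTC. Its groups did not overlap, and the log2 fold change of -0.66 (SE 0.18) was not called by edgeR (adjusted p = 0.0793) but was by DESeq2 (0.00942). The receptor Kit had 13, 1 and 5 counts in sgp53 and 30, 3 and 4 in sgNTC and was not tested. Kit is 376.8 kb from Pdgfra on chromosome 5, and a link between their levels was not tested.

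Of the VEGF ligands, Vegfb was at 31.0 ± 1.68 CPM in sgp53 and 25.7 ± 2.60 CPM in sgNTC, with no overlap (0.27 on the log2 scale, SE 0.098; edgeR adjusted p = 0.129). Vegfc, a ligand of the lymphatic receptor VEGFR3, was at 5.09 ± 0.547 CPM in sgp53 and 5.16 ± 0.569 CPM in sgNTC (log2 fold change -0.018, SE 0.17). Figf, now named Vegfd, was at 1.02, 2.03 and 7.72 CPM in sgp53 and 0.932, 1.30 and 0.847 CPM in sgNTC. The log2 fold change of Figf was 1.80 (SE 0.74, edgeR adjusted p = 0.170) and 0.58 without sgp53 line 3.

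The discoidin domain receptors, which collagens activate, were among the most abundant members and had no call. Ddr2 was at 342 ± 57.6 CPM in sgp53 and 352 ± 121 CPM in sgNTC (-0.044 on the log2 scale, SE 0.27; edgeR adjusted p = 0.931). Ddr1 was at 96.5 ± 26.8 CPM in sgp53 and 80.8 ± 19.6 CPM in sgNTC (0.26 on the log2 scale, SE 0.26; edgeR adjusted p = 0.548). Insr, the insulin receptor, was at 54.7 ± 7.73 CPM in sgp53 and 62.3 ± 7.77 CPM in sgNTC (-0.19 on the log2 scale, SE 0.13; edgeR adjusted p = 0.388).

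The remaining members were close to the limit of detection. Ntrk2, the BDNF receptor, had 7 counts in the 3 sgp53 libraries and 4 in the sgNTC libraries. It had 0 counts in sgNTC lines 2 and 3, where 0 counts allow up to 0.109 and 0.102 CPM (3 counts, counting error only). Fgf1 had 11 counts in sgp53 and 10 in sgNTC, and Fgf18 had 30 in sgp53 and 21 in sgNTC. Fgf2, basic FGF, had 107 counts in sgp53 and 33 in sgNTC, and 88 of the 107 were in line 3. The Fgf2 gene shares 9.44% of its exon bases with Nudt6 on the other strand, and the strand setting of the counting is not known.

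Per kb of exon, the levels of the 35 members spanned from the most abundant, Hbegf, at 47.7 ± 6.37 in sgp53 and 58.8 ± 1.81 in sgNTC, to Ntrk2 at 0.00385 ± 0.00189 in sgp53 and 0.00208 ± 0.00360 in sgNTC. After Hbegf came Ddr2 (36.9 ± 6.22 in sgp53 and 38.0 ± 13.1 in sgNTC), Fgfr1 (28.9 ± 7.48 in sgp53 and 23.7 ± 3.14 in sgNTC) and Ddr1 (20.2 ± 5.61 in sgp53 and 16.9 ± 4.11 in sgNTC), and in sgp53 the mean ± SD ranges of neighbours in this order overlapped. Areg held rank 11 in sgp53 and rank 3 in sgNTC, at 6.08 ± 2.06 CPM per kb in sgp53 and 28.6 ± 3.76 CPM per kb in sgNTC. Fgf7 held rank 14 in sgp53 and rank 25 in sgNTC, at 5.68 ± 6.23 CPM per kb in sgp53 and 0.260 ± 0.0949 CPM per kb in sgNTC. Pdgfrb held rank 6 in sgp53 and rank 14 in sgNTC. The Fgf7 rank rests on sgp53 line 3: without that library its mean was 2.08 CPM per kb and its rank 19.

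**Figure D5:**
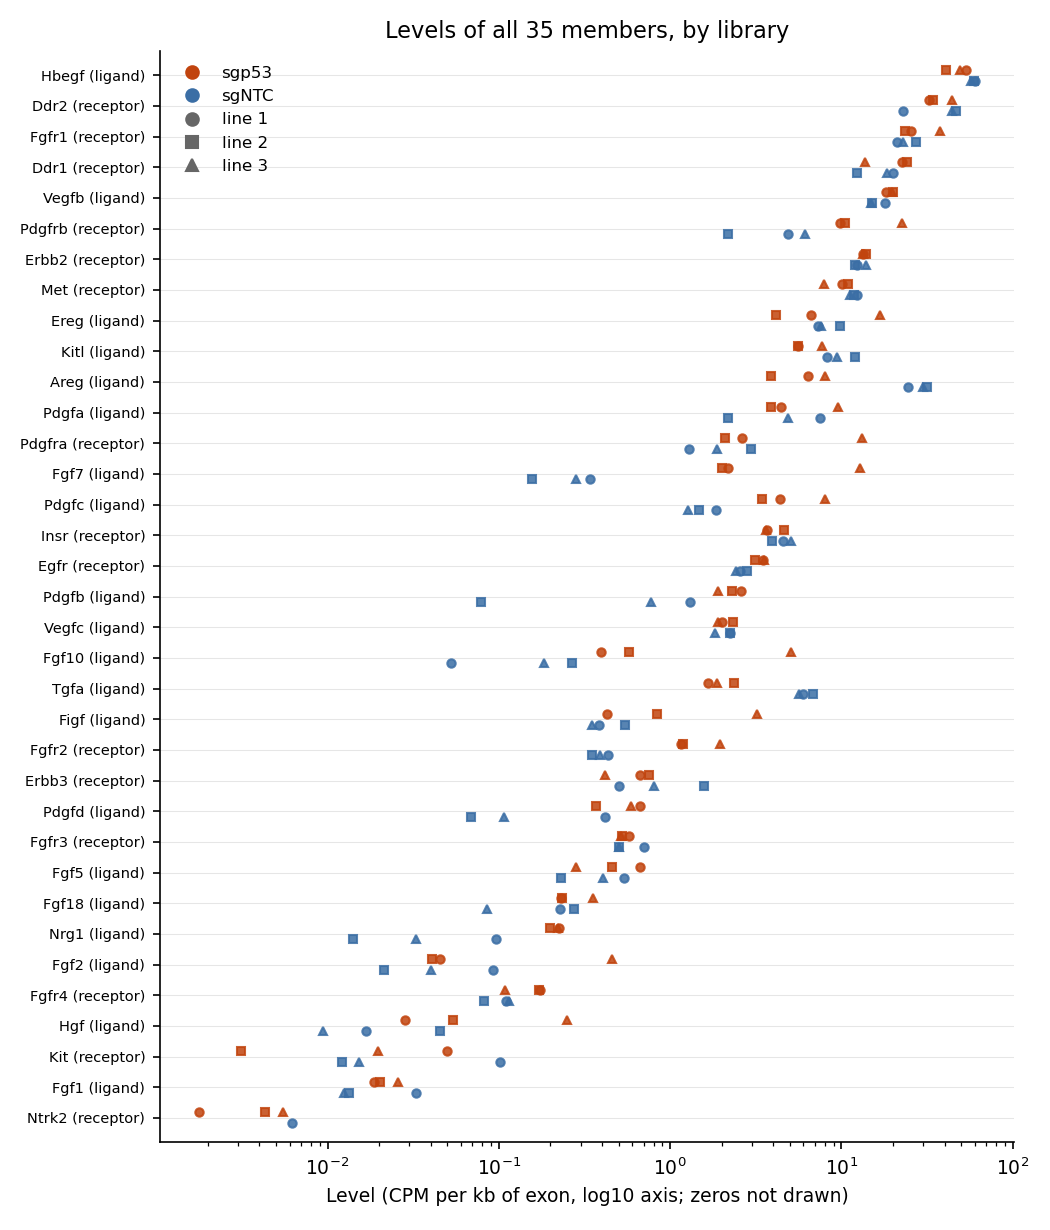
Levels of all 35 members in CPM per kb of exon on a log10 axis, in order of the sgp53 mean, with 1 point per library. Hbegf, Ddr2 and Fgfr1 lead in sgp53, Kit, Fgf1 and Ntrk2 come last, and Areg and Tgfa are the ligands whose sgNTC points lie far to the right of their sgp53 points.

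The members varied among the lines as well as between the groups. sgp53 line 3 was the highest of the 6 libraries for 11 of the 29 tested members, against 23.5% of all tested genes, and sgNTC line 2 was the lowest for 12, against 23.7%. In 5 members (Fgf7, Fgf10, Pdgfra, Pdgfrb and Figf) sgp53 line 3 was over 2-fold above each other library, which held for 1.79% of all tested genes. The part of the Rn45s level of that library in these values was not tested.

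Among other receptor tyrosine kinases, 5 of 26 tested were called, against 6.45% of all tested genes. With the line as a block 1 was higher and 1 lower, against 0.966% and 1.42% of all tested genes. Epha2, an ephrin receptor, fell (253 ± 10.7 CPM in sgp53 and 343 ± 5.27 CPM in sgNTC, log2 fold change -0.44, edgeR adjusted p = 0.0108). Igf1r, the IGF1 receptor, rose (162 ± 11.8 CPM in sgp53 and 112 ± 1.25 CPM in sgNTC, log2 fold change 0.53, edgeR adjusted p = 0.0118). Ryk, a WNT co-receptor, rose (188 ± 19.9 CPM in sgp53 and 133 ± 8.90 CPM in sgNTC, log2 fold change 0.50, edgeR adjusted p = 0.0341; 0.0547 with the block). Axl and Ephb4 also rose (log2 fold changes 0.47 and 0.40; adjusted p = 0.0868 and 0.102 in the blocked edgeR fit) and are named after their values were seen. The Igf1r call was lost without sgNTC line 3 (0.0684), and that of Epha2 without sgp53 line 1 (0.0547) or sgNTC line 3 (0.0648). That of Ryk was lost without each library other than sgp53 line 2 (0.0510 to 0.116).

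Among other ligands, 4 of 29 tested were called, against 6.45% of all tested genes. With the line as a block 0 were higher and 0 lower, against 0.966% and 1.42% of all tested genes. Btc, betacellulin, a further EGF receptor ligand, fell (6.98 ± 0.284 CPM in sgp53 and 20.6 ± 6.49 CPM in sgNTC, log2 fold change -1.56, edgeR adjusted p = 0.0239; 0.0659 with the block). Pros1, protein S, a ligand of TYRO3 and MERTK, fell (42.1 ± 4.26 CPM in sgp53 and 69.1 ± 4.68 CPM in sgNTC, log2 fold change -0.72, edgeR adjusted p = 0.0139; 0.0506 with the block). Vegfa rose (169 ± 9.52 CPM in sgp53 and 130 ± 4.64 CPM in sgNTC, log2 fold change 0.38, edgeR adjusted p = 0.0249; 0.0788 with the block). Ntf5, neurotrophin 4, fell (log2 fold change -1.63; adjusted p = 0.0728 in the blocked edgeR fit) and is named after its values were seen. The Pros1 call was lost without sgp53 line 1 (0.0590) or sgNTC line 3 (0.0526). That of Btc was lost without sgp53 line 1 (0.0907), line 2 (0.0647) or line 3 (0.0703) or sgNTC line 3 (0.0820), and that of Vegfa without each library other than sgNTC line 1 (0.0512 to 0.0957).

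Of 27 tested co-receptors and proteins of ligand release, 2 rose and 3 fell, against 2.76% higher and 3.69% lower of all tested genes. With the line as a block 1 rose and 0 fell, against 0.966% and 1.42%. Hspg2, perlecan, a heparan sulphate proteoglycan that binds FGFs, rose (1329 ± 12.6 CPM in sgp53 and 978 ± 79.7 CPM in sgNTC, log2 fold change 0.44, edgeR adjusted p = 0.0222; 0.0676 with the block). Adam12, a metalloprotease that can cleave EGF family ligands, rose (21.0 ± 8.24 CPM in sgp53 and 1.67 ± 1.24 CPM in sgNTC, log2 fold change 3.64, edgeR adjusted p = 0.0263). Plau, urokinase, which can activate pro-HGF, fell (99.1 ± 3.21 CPM in sgp53 and 171 ± 33.4 CPM in sgNTC, log2 fold change -0.79, edgeR adjusted p = 0.0281; 0.0659 with the block). Rhbdf2, which carries ADAM17 to the cell surface, and Spint1, an inhibitor of the HGF activator, fell (log2 fold changes -1.26 and -0.92; adjusted p = 0.0711 and 0.0962 in the blocked edgeR fit) and are named after their values were seen. With 1 library left out, the Hspg2 call was lost without sgNTC line 3 (0.0956) or any 1 sgp53 library (0.0507 to 0.0801) and the Plau call without any 1 sgp53 library (0.0680 to 0.102). The Adam12 call was lost without sgp53 line 1 (0.0854), sgp53 line 3 (0.0632) or sgNTC line 3 (0.106).

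Of 33 tested adaptors and effectors 1 was called (3.03%, against 6.45% of all tested genes). That gene, Plcg2, fell (24.9 ± 4.03 CPM in sgp53 and 39.6 ± 4.52 CPM in sgNTC, log2 fold change -0.67, edgeR adjusted p = 0.0483; 0.110 with the block). Its call was lost without any 1 library (0.0528 to 0.155) and with upper-quartile scaling (0.0524). Of 20 tested genes that restrain the receptors 1 was called (5%, against 6.45% of all tested genes). That gene, Lrig3, rose (51.3 ± 4.99 CPM in sgp53 and 37.2 ± 2.22 CPM in sgNTC, log2 fold change 0.46, edgeR adjusted p = 0.0381; 0.0792 with the block). Its call was lost without each library other than sgNTC line 1 (0.0514 to 0.135). Of 8 tested collagen chains that DDR1 and DDR2 can bind, 5 rose and 0 fell, against 2.76% higher and 3.69% lower of all tested genes. With the line as a block 6 rose and 0 fell, against 0.966% and 1.42%. Col1a1, of type I collagen, was at 459 ± 265 CPM in sgp53 and 8.90 ± 3.72 CPM in sgNTC (log2 fold change 5.68, edgeR adjusted p = 0.00728), and Col1a2, the other type I chain, at 395 ± 340 CPM in sgp53 and 11.0 ± 6.46 CPM in sgNTC (5.16, edgeR adjusted p = 0.0210). Col5a1, of type V collagen, was at 402 ± 23.3 CPM in sgp53 and 175 ± 18.2 CPM in sgNTC (1.20, edgeR adjusted p = 0.00279). Without sgp53 line 3, which held 787 CPM of Col1a2, its log2 fold change was 4.18 and the call was kept (0.0213). The Col1a2 call was lost without sgp53 line 1 (0.0536), sgNTC line 2 (0.0640) or sgNTC line 3 (0.0936). Across lines 1, 2 and 3 their receptors Ddr1 and Ddr2 differed by 0.18, 0.98 and -0.42, and by 0.49, -0.44 and -0.017 in log2 CPM.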

How the data were processed

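RNA from 6 libraries, 3 per group, was sequenced after stranded TruSeq preparation, per the labels' protocols. The authors' table holds raw counts per gene symbol, not normalized. Named in the submitters' processing notes, without roles, are CASAVA 1.8, STAR, DESeq2 and mm10. Which counter, annotation and strand setting were used is not given in the sources used here; overlapping genes on opposite strands cannot be told apart. The members and lists were chosen with earlier results of these data known.

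From the deposited counts, edgeR 4.0.16 (R 4.3.3) tested sgp53 against sgNTC with TMM scaling and filterByExpr (13044 genes tested, 4 residual degrees of freedom). CPM use the TMM-scaled totals, and each SE was derived from the coefficient and its F. The text names every member; of each other list, up to 3 called genes of smallest adjusted p. An exact test of 3 against 3 libraries cannot go below p = 0.1. No label ties the lines to separate embryos, so p-values measure the spread between these libraries, which may come from the lines, be technical, or both. The column headers of lines 2 and 3 share an identifier number that line 1 lacks, and its meaning is not given. Replicate libraries differed beyond counting noise (chi-square per degree of freedom 21.8 to 58.0). Exon lengths are from GENCODE vM21 (GRCm38), and 34 members matched RefSeq by symbol and 1 by synonym. Genes on the opposite strand share 2.89% of the exon bases of Pdgfc, 1.82% of Tgfa and 26.1% of Pdgfa. Fgfr2 shares 3.04% with Ctbp2 on the same strand, which a strand setting would not separate. The fit was checked on simulated counts that held no line effect and no outlying library, so that check does not cover these features.

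The line numbers pair the libraries, since both libraries of a number come from the same cell line, per the labels. Across genes, the deviations of same-line libraries had correlations of 0.0893, 0.00177 and -0.0272 for lines 1, 2 and 3. The blocked fit has 2 residual degrees of freedom. Alternatives were RLE and upper-quartile scaling, no count filter, DESeq2 1.42.0, limma-voom (limma 3.58.1), the block, and leaving out each library or line.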

Additional observations from a re-analysis of the deposited data

How the results depend on the processing

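With DESeq2, 7 members were called higher and 3 lower, and 1195 and 1172 of all genes; with the line as a block 1 member was higher and 2 were lower, and 126 and 185 of all genes. With limma-voom 1 member was higher and 2 were lower, and 284 and 414 of all genes. The summaries over 24 members and the Fgf7 rank without sgp53 line 3 were chosen after seeing the data. Leaving out 1 library or 1 line gave 0 to 3 members higher and 0 to 2 lower, and 4 to 251 of all genes higher and 15 to 449 lower. The fold change of Trp53 stayed between -1.78 and -1.31 and its call was lost without sgp53 line 1 or 2, sgNTC line 3 or any whole line. Of the 5 called members, only Tgfa kept its call with a whole line left out, without line 2 (edgeR adjusted p = 0.0374). The 5 called members and the 14 other genes named by the rule kept their direction in every alternative. Of members that were not called, Ereg reversed with limma-voom (-0.11), with the replicate block (-0.069) and with libraries left out (-0.66 to 0.67), Ddr2 with limma-voom (0.014), the block (0.011) and libraries left out (-0.30 to 0.19), and Vegfc with upper-quartile scaling (7.06e-06) and libraries left out (-0.11 to 0.047). With libraries left out, Pdgfa lay between -0.22 and 0.92, Fgf5 between -0.094 and 0.55, Fgfr3 between -0.17 and 0.086 and Ddr1 between -0.068 and 0.54. The causes were not tested. Members with few counts (Fgf1, Fgf2, Fgf18, Hgf, Kit and Ntrk2) are limited by depth.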
